A study of Homo sapiens with 6 samples.

Results

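CD98 is a heterodimer of the plasma membrane in which a glycoprotein heavy chain, encoded by SLC3A2, is joined by a disulfide bond to a light chain of the SLC7 family. The heavy chain carries the pair to the cell surface and binds the tails of integrin beta subunits, and the light chain moves the amino acid. The partners of SLC3A2 include SLC7A5 and SLC7A8, which exchange neutral amino acids, SLC7A6 and SLC7A7, which exchange cationic for neutral ones, SLC7A10, a carrier of small neutral amino acids, and SLC7A11, which imports cystine in exchange for glutamate. The last pair, known as system xc- or xCT, feeds glutathione synthesis and is known in glioma for the glutamate it releases. SLC3A1 encodes the second heavy chain of the family, best known from kidney and gut, and SLC7A1 and SLC7A2 are carriers of cationic amino acids that work without a heavy chain.

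These 10 genes, chosen by name, were all listed in the deposited tables of 25680 gene symbols, and 8 of them had enough reads to be tested. The cells were U87, an established human glioblastoma line of wild-type genotype. All received 500 nM of the rhodamine-tagged cyclic peptide EPP6 for 1 h, were detached and were sorted on rhodamine fluorescence. The high-uptake group was the brightest 30% of cells and the low-uptake group the dimmest 30%, with 3 RNA-seq libraries each, numbered 2, 3 and 4. No untreated cells stand beside them, and the series looks for membrane and other proteins involved when cells take up such peptides. The labels do not say whether libraries came from separate cultures, so p-values reflect the spread among these 6 samples alone, and part of it may be technical. In bulk RNA, fewer cells that express a gene and less RNA of it per cell cannot be told apart.

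Libraries held 13712263 to 40742857 counts in high uptake and 20295900 to 38048334 in low uptake. Replicates within a group differed by a chi-square of 11.5 to 19.6 per degree of freedom, except low replicates 3 and 4, at 2.35. None looked like a repeat deposit of the same counts, which does not show that they came from separate cultures or RNA. Both libraries numbered 2 stood apart on the second principal component of log CPM (read counts scaled to a common library size). The high-uptake one was at 18.6 and the low-uptake one at 23.8. High replicate 3, the library of fewest counts, lay on the other side at -23.1. High replicate 4 and low replicates 3 and 4 lay between -7.92 and -4.99. Results are also given without both libraries numbered 2 and without single libraries. U87 markers were present, with 14608 to 15891 CPM in high and 13833 to 14619 CPM in low uptake summed over 8 genes led by VIM, of which PDGFRB passed the test described below (log2 0.83). Astrocyte markers summed to 0.495 to 1.05 CPM in high and 0.491 to 1.09 CPM in low uptake, and oligodendrocyte lineage markers to 1.44 to 2.64 and 2.09 to 2.54 CPM. Within these lists AQP4 and OLIG1 had 0 counts in every library, while GFAP, OLIG2 and MBP were detected at a low level and did not pass. Neuronal markers summed to 50.2 to 54.6 CPM in high and 39.5 to 43.4 CPM in low uptake, where SNAP25 was the 1 of 4 tested that passed. Summed endothelial markers were at 5.49 to 6.18 CPM in high and 7.04 to 7.92 CPM in low uptake, immune markers at 15.9 to 19.1 and 18.4 to 21.1 CPM, and epithelial markers at 1.71 to 2.37 and 1.76 to 2.20 CPM. The part of these markers in the results was not tested.

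Promoter sequences are shown because SLC3A2, SLC7A5 and SLC7A11 are known targets of ATF4, the factor of the amino acid response, and SLC7A11 also of NRF2, the factor of the antioxidant response. RefSeq windows (GRCh38.p14, 250 bases before to 50 after a start site) were at hand for 7 of the 10 genes, 14 windows in all. SLC3A1, SLC7A11 and SLC7A2 had no entry. Both strands were searched for TGACNNNGC, the core of the antioxidant response element, for TGATGNAAN, the core of the amino acid response element, and for the E-box CACGTG, and no match overlapped a match to another of these motifs. The stretch before the most downstream of 3 SLC3A2 starts, at chr11:62881449-62881698 (plus strand), has 1 antioxidant element core in capitals, 37 to 29 bases before the start. Windows of the other SLC3A2 starts hold no match. The stretch before the most upstream SLC7A8 start, chr14:23183661-23183910 (minus strand), has no match, while the window of its most downstream start has an E-box, given below. SLC7A8 is shown beside SLC3A2 because it moved the opposite way. As the printed starts are from opposite ends, match and no match are not a contrast between the genes.
SLC3A2: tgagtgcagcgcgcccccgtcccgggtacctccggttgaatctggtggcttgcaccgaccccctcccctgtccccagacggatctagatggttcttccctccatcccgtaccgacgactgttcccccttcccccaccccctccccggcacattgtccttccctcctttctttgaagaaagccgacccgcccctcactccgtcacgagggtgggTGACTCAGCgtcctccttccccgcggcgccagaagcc
SLC7A8: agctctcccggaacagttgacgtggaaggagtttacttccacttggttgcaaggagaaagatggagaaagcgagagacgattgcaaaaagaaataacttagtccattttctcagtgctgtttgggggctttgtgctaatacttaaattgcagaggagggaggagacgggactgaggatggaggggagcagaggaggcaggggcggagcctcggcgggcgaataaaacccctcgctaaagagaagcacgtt

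Short stretches of 30 bases show further matches, with the match in capitals. Those in SLC7A6 and SLC7A7 are not printed. SLC7A6 has antioxidant element cores 197 to 189 and 29 to 21 bases before its start. SLC7A7 has an antioxidant element core 88 to 80 bases before its most upstream start and an E-box 225 to 220 bases before another. Neither gene passed the test below, and neither did SLC7A1 or SLC7A5, whose matches are printed. The amino acid element core occurs in the SLC3A2 window, on the opposite strand 36 to 44 bases past the start (chr11:62881719-62881748), and in the SLC7A1 window 7 to 15 bases past the start (chr13:29595662-29595691, minus strand). SLC7A1 also has an antioxidant element core (chr13:29595754-29595783). SLC7A8 has an E-box 129 to 124 bases before its most downstream start (chr14:23154505-23154534, minus strand), and its other 3 windows hold no match. SLC7A5 has an E-box (chr16:87869620-87869649, minus strand) and an antioxidant element core across its start (chr16:87869490-87869519). Of 35116 RefSeq windows, 13.3% hold the antioxidant core, 3.61% the amino acid core and 7.26% the E-box, and a match is a run of letters, not a shown binding site. Which start site U87 cells use cannot be read from counts per gene.
SLC3A2 amino acid core: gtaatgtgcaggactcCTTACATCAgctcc
SLC7A1 amino acid core: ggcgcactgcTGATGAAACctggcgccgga
SLC7A1 antioxidant core: tgcccggcggTGACGCGGCcgagcgggccg
SLC7A8 E-box: cacaattagaaaCACGTGctcagttccttc
SLC7A5 E-box: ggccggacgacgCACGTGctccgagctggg
SLC7A5 antioxidant core: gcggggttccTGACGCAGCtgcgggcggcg

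Levels of different genes were compared by the deposited TPM, which is scaled by gene length. SLC3A2 was the most abundant of the 10, at 293 ± 21.7 TPM in high and 414 ± 17.5 TPM in low uptake (mean ± SD, n = 3 each, here and below). SLC7A5 followed at 95.2 ± 18.1 TPM in high and 127 ± 1.38 TPM in low uptake, then SLC7A1 at 69.5 ± 1.94 and 58.0 ± 1.46 TPM. SLC7A11 changed its place in the order. It stood at 25.3 ± 7.18 TPM in high uptake, below SLC7A6 at 38.6 ± 0.694 TPM and within the spread of SLC3A1 at 22.0 ± 3.74 TPM. In low uptake it stood at 53.3 ± 10.4 TPM, a spread that takes in the SLC7A1 mean. There it was above SLC7A6 at 39.4 ± 1.36 TPM and SLC3A1 at 21.7 ± 3.36 TPM. SLC7A8 and SLC7A7 were scarce, at 6.38 ± 0.192 and 0.556 ± 0.104 TPM in high uptake against 3.69 ± 0.491 and 0.376 ± 0.0524 TPM in low uptake. SLC7A2 had 1 count in high replicate 3 and 2 counts in low replicate 4. SLC7A10 had 0 counts in all 6 libraries, which allows up to 0.0344 CPM over the high-uptake and 0.0370 CPM over the low-uptake libraries (3 counts over each group, counting error only).

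**Figure D1:**
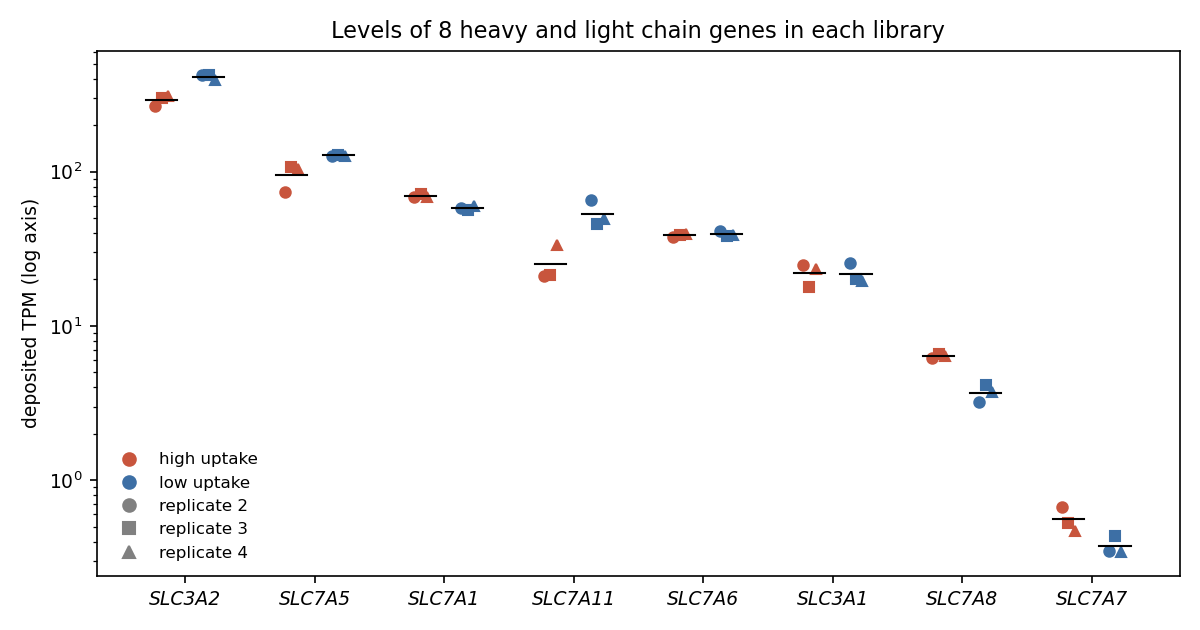
Deposited TPM (log axis) of the 8 tested genes in each library, with a line at the mean of 3 libraries, high uptake left of low uptake. SLC7A11 lies below SLC7A6 in every high-uptake library and above it in every low-uptake library, while SLC3A2 leads in all 6.

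Of the 8 tested genes, SLC3A2 and SLC7A11 were lower and SLC7A8 was higher in high uptake by edgeR's quasi-likelihood test, at an adjusted p under 0.05 over 14598 genes, and 5 did not pass. Among all tested genes 4.29% passed, 3.03% higher and 1.26% lower. High and low uptake had no overlapping values in 7 of the 8, of which 3 were higher and 4 lower, as for 24.4% of all tested genes (13% higher and 11.4% lower). The genes were picked with earlier results of these data known, so these counts are a description. The median log2 fold change was -0.04 over the 8 and -0.00 over all tested genes.

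**Figure D2:**
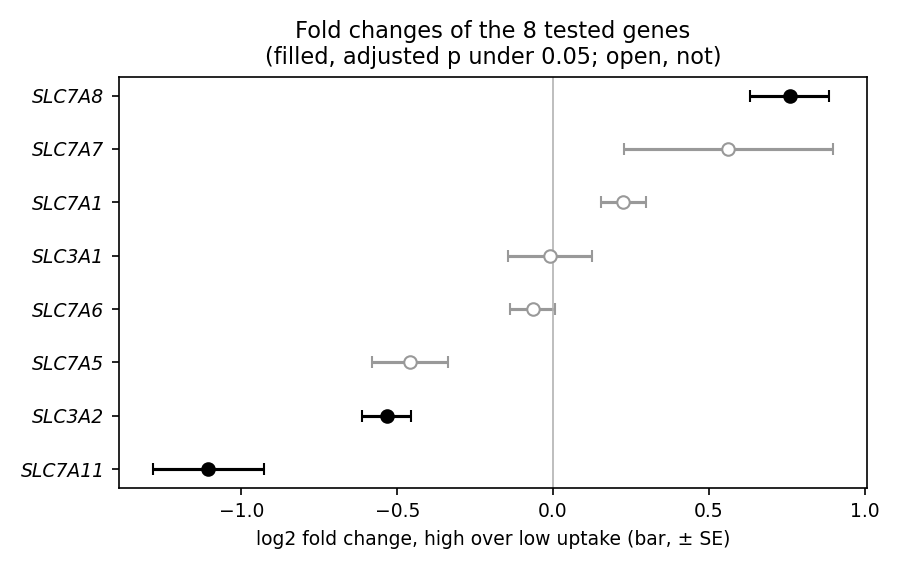
Log2 fold change of high over low uptake for the 8 tested genes (horizontal axis, bars ± SE). Filled points passed an adjusted p of 0.05. SLC7A11 at -1.11 and SLC3A2 at -0.53 lie left of 0, and SLC7A8 at 0.76 lies right of it.

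The heavy chain gene SLC3A2 had 316, 362 and 358 CPM in high replicates 2, 3 and 4, against 506, 515 and 478 CPM in low replicates 2, 3 and 4. All high-uptake values were below all low-uptake values, and the spread within each group was small beside the gap. The level was 1.45-fold higher in low uptake (log2 high over low -0.53, SE 0.0774, adjusted p = 0.00372 in edgeR). It passed under each of the 18 other settings, the log2 fold change running from -0.58 to -0.46, and was -0.46 without both libraries numbered 2 (adjusted p = 6.94e-04). The other heavy chain gene, SLC3A1, had 23.4, 17.0 and 21.7 CPM in high against 24.3, 19.7 and 18.9 CPM in low uptake. These values overlapped (log2 -0.01, SE 0.135, adjusted p = 0.986 in edgeR).

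SLC3A1 counts moved with those of PREPL, a peptidase-like gene on the opposite strand. In GENCODE 29 (GRCh38), exons of PREPL overlap 1923 bases, or 29.4%, of the SLC3A1 exons. SLC3A1 had 17.9% to 18.4% of the PREPL count in high-uptake libraries and 17.1% to 18.2% in low-uptake libraries. PREPL itself stood at 128, 92.4 and 121 CPM in high against 133, 112 and 110 CPM in low uptake, and library by library the order of its values within a group was that of SLC3A1. Whether reads were counted by strand is not known here, so those of SLC3A1 and PREPL cannot be told apart.

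The cystine importer SLC7A11 showed the largest difference of the 8 tested genes. It had 82.2, 85.4 and 130.0 CPM in high replicates 2, 3 and 4, against 258, 185 and 198 CPM in low replicates 2, 3 and 4. High replicate 4 was the highest of its group and low replicate 2 the highest of all, and the groups did not overlap. The log2 fold change was -1.11 (SE 0.177, adjusted p = 0.00795 in edgeR), which is 2.15-fold higher in low uptake. The call was lost in 4 of the 18 other settings, among them without high replicate 3 (log2 -1.02, adjusted p = 0.141 in edgeR) and with no filter on low counts (adjusted p = 0.0895), and held without both libraries numbered 2 (log2 -0.82, adjusted p = 6.28e-05).

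SLC7A11-AS1, an RNA on the opposite strand, also fell, to 7.18, 5.86 and 9.48 CPM in high uptake, against 21.1, 13.3 and 14.6 CPM in low uptake (log2 -1.10, SE 0.196, adjusted p = 0.0106 in edgeR). Its exons share 865 bases with those of SLC7A11, 8.97% of the SLC7A11 exon bases. Its count was 6.86% to 8.73% of the SLC7A11 count in high-uptake and 7.18% to 8.18% in low-uptake libraries. Reads of the pair cannot be told apart in the shared stretch without a stated strand setting.

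SLC7A5, the light chain also called LAT1, which exchanges large neutral amino acids such as leucine, had 137, 199.6 and 191 CPM in high replicates 2, 3 and 4, against 235, 247 and 242 CPM in low replicates 2, 3 and 4. The groups did not overlap, and high replicate 2 was far below the other high-uptake libraries. The log2 fold change of -0.46 (SE 0.121) did not pass in edgeR (adjusted p = 0.0577). It did not pass in 11 of the 18 other settings. Without high replicate 2 the log2 fold change was -0.31 (adjusted p = 0.0930 in edgeR). It passed in DESeq2 (adjusted p = 0.00563), where 6.08% of all genes passed, and in limma-voom (adjusted p = 0.0471), where 4.4% did. It also passed once the dependence on GC content was taken out of each library (adjusted p = 0.0141), where 18.8% of all genes passed, without high replicate 3 (adjusted p = 0.00857) and without both libraries numbered 2 (log2 -0.32, adjusted p = 0.0241). SLC7A5 shares 604, 537 and 536 of its 4537 transcript bases at 95% identity or more with SMG1P3, SLC7A5P1 and SLC7A5P2. These had 12 to 139 counts in a library beside 2691 to 9096 counts for SLC7A5, and none of the 3 passed.

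SLC7A8, or LAT2, a light chain with a broader range of neutral amino acids, was the member that rose. It had 12.3, 13.3 and 12.5 CPM in high replicates 2, 3 and 4, against 6.39, 8.59 and 7.62 CPM in low replicates 2, 3 and 4. The 3 high-uptake libraries lay close together and well above every low-uptake library. The log2 fold change was 0.76 (SE 0.128, adjusted p = 0.00795 in edgeR), a 1.69-fold rise. It passed under each of the 18 other settings, with log2 fold changes from 0.64 to 0.86. The depth behind it was 179 to 498 counts per library in high and 156 to 247 in low uptake.

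**Figure D3:**
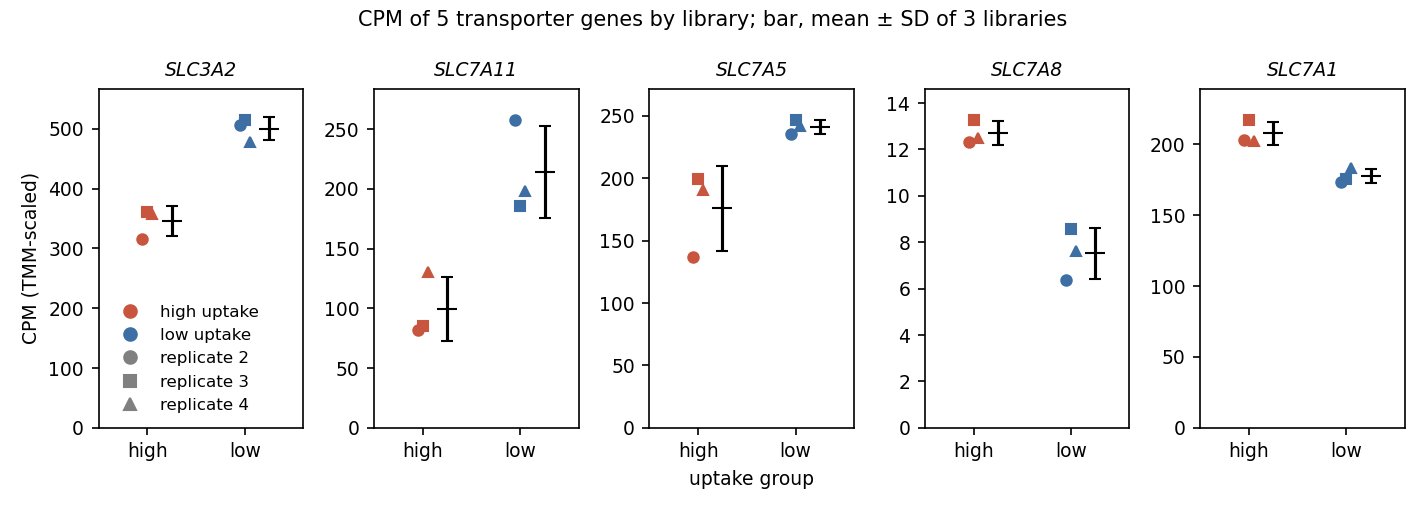
CPM of 5 transporter genes in each library (axes from 0), with the mean ± SD of 3 libraries beside the points, high uptake left of low. SLC3A2, SLC7A11 and SLC7A5 are lower in all 3 high-uptake libraries, and SLC7A8 and SLC7A1 are higher in all 3.

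SLC7A6 and SLC7A7, the light chains that exchange cationic for neutral amino acids, did not pass. SLC7A6 had 97.9, 101.3 and 100.04 CPM in high and 107, 102.9 and 103 CPM in low uptake, groups that did not overlap but lay only 1.05-fold apart (log2 -0.07, SE 0.0735, adjusted p = 0.698 in edgeR). Exons of SLC7A6OS on the opposite strand cover 3371 bases, or 44.4%, of the SLC7A6 exons, and SLC7A6OS had 29.4% to 30.9% of its count in high and 29.4% to 30.5% in low uptake. SLC7A7 had only 30, 8 and 17 counts in high and 15, 11 and 8 counts in low uptake (log2 0.56, SE 0.335, adjusted p = 0.409 in edgeR). Without high replicate 2 its log2 fold change was 0.34, and without both libraries numbered 2 it was 0.25.

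SLC7A1, or CAT1, the main carrier of arginine and lysine in many cells, had 203, 217 and 203 CPM in high replicates 2, 3 and 4, against 174, 175 and 183 CPM in low replicates 2, 3 and 4. Every high-uptake value was above every low-uptake value, by a small margin. The log2 fold change of 0.23 (SE 0.0727) did not pass in edgeR (adjusted p = 0.114), in DESeq2 (adjusted p = 0.0971) or in limma-voom (adjusted p = 0.110), and passed with the GC trend removed (log2 0.22, adjusted p = 0.00433).

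Since SLC3A2 serves several light chains, each SLC7 gene was also set against it within a library, as TPM of the gene over TPM of SLC3A2. SLC7A8 stood at 0.0219 ± 0.00123 of SLC3A2 in high uptake and 0.00895 ± 0.00128 in low uptake, a 2.46-fold higher ratio. SLC7A6 stood at 0.132 ± 0.00794 in high and 0.0954 ± 0.00382 in low uptake, 1.39-fold higher. SLC7A7 stood at 0.00193 ± 0.000516 in high and 0.000909 ± 0.000113 in low uptake. For SLC7A1, which does not pair with SLC3A2, the ratio was 0.238 ± 0.0152 in high and 0.141 ± 0.00947 in low uptake, 1.70-fold higher. In these 4 genes the groups did not overlap, which gives p = 0.1 in an exact two-sided permutation test, the smallest p that 3 against 3 allows (adjusted p = 0.15 over the 6 ratios), so none could reach 0.05.

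The ratios of SLC7A11 and SLC7A5 overlapped between the groups. SLC7A11 ranged from 0.0710 to 0.109 of SLC3A2 in high and from 0.108 to 0.153 in low uptake (exact permutation p = 0.2, adjusted p = 0.24). SLC7A5 stood at 0.323 ± 0.0404 in high and 0.309 ± 0.0131 in low uptake (exact permutation p = 0.7, adjusted p = 0.7), so that its level relative to the heavy chain differed by less than the spread between libraries.

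**Figure D4:**
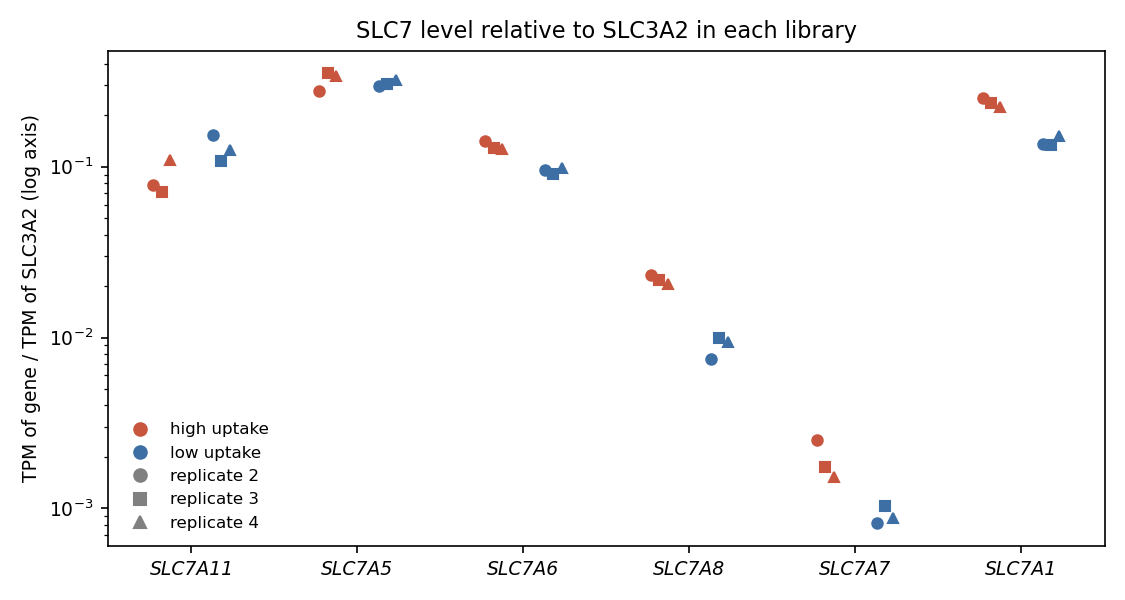
TPM of each SLC7 gene divided by TPM of SLC3A2 in the same library (log axis), high uptake left of low. The groups overlap for SLC7A11 and SLC7A5 and are apart for SLC7A6, SLC7A8, SLC7A7 and SLC7A1.

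The 5 detected partners of SLC3A2 summed to 166 ± 23.2 TPM in high and 224 ± 10.3 TPM in low uptake. That sum was 0.566 ± 0.0391 of the SLC3A2 level in high and 0.543 ± 0.0225 in low uptake, ranges that overlapped. Within the sum, SLC7A5 made up 57.0% ± 4.14 in high and 56.9% ± 3.01 in low uptake. SLC7A11 made up 15.2% ± 2.94 in high and 23.7% ± 3.50 in low uptake, and SLC7A8 3.89% ± 0.496 and 1.66% ± 0.285. SLC7A6 took 23.5% ± 3.10 in high and 17.6% ± 0.204 in low uptake. In low uptake SLC7A11 was thus the second most abundant partner transcript in every library, and in high uptake SLC7A6 was. These shares are of transcripts, were not tested and say nothing of protein.

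Genes of the pathways these transporters feed or answer to were read from the same fit. The NRF2 and glutathione list, which holds the glutathione synthesis that imported cystine supplies, had 24 of 25 genes tested. Of these 9 fell, none rose and 15 did not pass, with a median log2 fold change of -0.30. AKR1C1, an aldo-keto reductase of a cluster of near-identical genes between which reads can be split, stood at 55.7 ± 6.40 CPM in high and 115 ± 8.71 CPM in low uptake (log2 -1.05, SE 0.101, adjusted p = 4.06e-04 in edgeR). PGD, of the pentose phosphate pathway that makes NADPH, stood at 229 ± 21.1 and 313 ± 6.67 CPM (log2 -0.45). TXNRD1, thioredoxin reductase, was at 870.0 ± 178 and 1296 ± 40.4 CPM (log2 -0.58), and FTH1, the ferritin heavy chain, at 5636 ± 417 and 7086 ± 152 CPM (log2 -0.33). In edgeR the call of PGD was lost without low replicate 4 (adjusted p = 0.0563), that of TXNRD1 without high replicate 3 (0.0553) or low replicate 4 (0.0742), and that of FTH1 without high replicate 2 or 4, low replicate 3 or 4, or both libraries numbered 2 (up to 0.113). The FTH1 call was also lost with the trend with gene length removed (0.0627).

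The other 5 that fell were NQO1 (-0.36), SRXN1 (-0.44), FTL (-0.39), OSGIN1 (-0.55) and GSR (-0.32), in log2 units and named after their values were seen. GSR regenerates reduced glutathione. The catalytic and modifier subunits of the enzyme that joins cysteine to glutamate, GCLC and GCLM, stood at 49.7 ± 7.35 and 66.0 ± 7.44 CPM in high uptake against 64.4 ± 2.54 and 81.0 ± 8.79 CPM in low uptake and did not pass (adjusted p = 0.0805 and 0.166 in edgeR). NFE2L2, which encodes NRF2, stood at 170.0 ± 10.3 CPM in high and 153 ± 8.17 CPM in low uptake (log2 0.15, adjusted p = 0.342 in edgeR). GSS (log2 -0.02), HMOX1 (log2 0.01) and GPX4 (log2 -0.13) of the same list differed little (adjusted p = 0.934, 0.966 and 0.477 in edgeR). The count of 9 dropped to 3 when high replicate 2 or low replicate 3 was left out and to 1 when low replicate 4 was. Over all tested genes 72, 66 and 50 fell under those settings, against 184 as tested. With the GC trend removed 16 of the list fell and 1 rose, where 18.8% of all genes passed. As tested, 1.26% of all genes fell.

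Among 27 genes of ATF4 and the amino acid response, 2 fell, none rose and 25 did not pass, with a median log2 fold change of -0.12. The 2 that fell are 7.41% of the list, and 1.26% of all tested genes fell. TRIB3, a pseudokinase induced by ATF4, stood at 12.1 ± 2.16 CPM in high and 23.1 ± 0.231 CPM in low uptake (log2 -0.95, SE 0.130, adjusted p = 0.00279 in edgeR). ASNS, which makes asparagine, had 66.8 ± 1.94 CPM in high and 92.6 ± 14.2 CPM in low uptake (log2 -0.47, SE 0.106, adjusted p = 0.0306). ATF4 itself had 281 ± 18.2 CPM in high and 329 ± 10.1 CPM in low uptake and did not pass (adjusted p = 0.124 in edgeR). The ASNS call was lost without high replicate 2 or 4 or low replicate 2 or 3, and with the length trend removed (adjusted p up to 0.104). The count of 2 was 1 under each of those 5 settings and 4 without high replicate 3, and with the GC trend removed 11 fell and 3 rose, where 18.8% of all genes passed. Over all tested genes 66 to 166 fell under those 5 settings and 249 without high replicate 3, against 184 as tested.

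Of 24 other amino acid carriers tested, 0 passed in edgeR (7 at an unadjusted p under 0.05, 3 in DESeq2 and 0 in limma-voom), with a median log2 fold change of -0.11. Among all tested genes 6.08% passed in DESeq2 and 4.4% in limma-voom. The share of all genes at an unadjusted p under 0.05 was not taken, so the unadjusted count has no background here. Without high replicate 3, 2 rose and 1 fell, and with no filter on low counts 1 rose and 2 fell. Without both libraries numbered 2, 1 rose, and with total-count scaling or the length trend removed 1 fell. With the GC trend removed 2 rose and 4 fell, where 18.8% of all genes passed. The smallest p belonged to SLC1A1, a carrier of glutamate and cysteine, at 44.0 ± 4.74 CPM in high and 32.5 ± 4.24 CPM in low uptake (log2 0.44, SE 0.117, adjusted p = 0.0595 in edgeR). It passed in 6 of the 18 other settings. Among them were DESeq2 (adjusted p = 0.0109) and, in edgeR, leaving out both libraries numbered 2 (adjusted p = 0.0103) or high replicate 3 (adjusted p = 0.0408). Of the 8 other SLC7 symbols, 4 were tested and 0 passed (0 at an unadjusted p under 0.05, and 0 in DESeq2 and limma-voom). The smallest p there was that of SLC7A5P2 (log2 -0.34, adjusted p = 0.468 in edgeR). SLC7A9, the partner of SLC3A1, had 1 count in high replicate 4 and 1 in low replicate 3.

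Among 14 partners of CD98 and proteins that steady xCT, 2 rose and 0 fell (median log2 0.08). The 2 that rose are 14.3% of the list, and 3.03% of all tested genes rose. Both are integrin subunits of the kind whose tails the heavy chain binds. ITGB3 stood at 299 ± 17.6 CPM in high and 219 ± 13.1 CPM in low uptake (log2 0.45, adjusted p = 0.00987 in edgeR), and ITGB1 at 1105 ± 125 and 864 ± 44.8 CPM (log2 0.36, adjusted p = 0.0464), both opposite in direction to SLC3A2. CD44, which steadies xCT at the membrane, was at 1953 ± 71.5 CPM in high and 1753 ± 22.1 CPM in low uptake and did not pass (adjusted p = 0.230 in edgeR). The count of 2 was 1 without high replicate 2 or 4 or low replicate 3, and 0 without low replicate 4. Over all tested genes 210, 269, 210 and 182 rose under those settings in turn, against 442 as tested. With total-count scaling, upper quartile scaling or the length trend removed, ITGB1 did not pass (adjusted p up to 0.0710 in edgeR), and with the GC trend removed 3 rose and 1 fell, where 18.8% of all genes passed.

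Of 32 genes of amino acid sensing by mTORC1, 0 passed in edgeR (3 at an unadjusted p under 0.05, 0 in DESeq2 and limma-voom). Without high replicate 3, without low replicate 2 and with no filter on low counts 1 rose. The smallest p belonged to RRAGA, a GTPase that brings mTORC1 to the lysosome (log2 0.28, adjusted p = 0.0932 in edgeR). Of 19 cytosolic aminoacyl-tRNA synthetases, 0 passed (5 at an unadjusted p under 0.05, 0 in DESeq2 and limma-voom). The smallest p was that of SARS, the seryl-tRNA synthetase (log2 -0.22, adjusted p = 0.127 in edgeR). With the GC trend removed, 3 rose and 2 fell among the sensing genes, and 1 rose and 7 fell among the synthetases. Under that setting 18.8% of all genes passed. The 5 sensing genes are a smaller share of their list, and the synthetases that passed are a larger share of theirs. The counts at an unadjusted p under 0.05 have no share of all genes beside them, here as above.

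**Figure D5:**
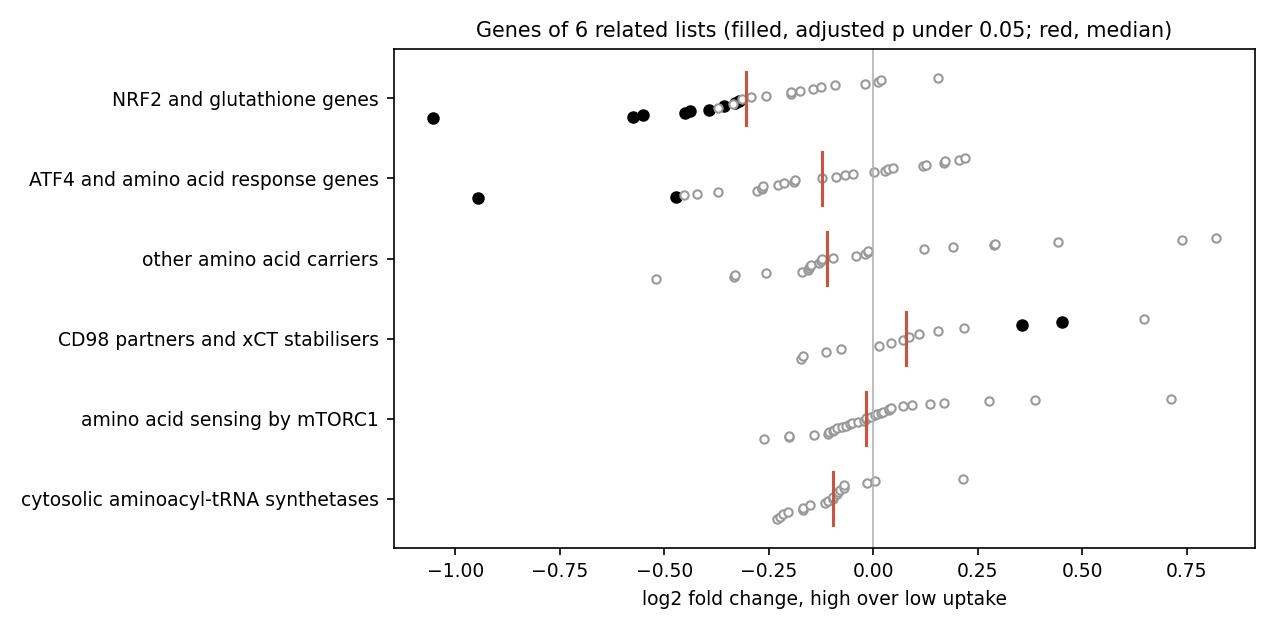
Log2 fold change of high over low uptake for each tested gene of 6 related lists. Filled points passed an adjusted p of 0.05 and the red line is the list's median. The NRF2 and glutathione list has its median at -0.30 and 9 filled points, all left of 0.

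The genes most like SLC3A2 over the 6 libraries, by Pearson correlation of log2 CPM among 9781 genes of at least 10 CPM outside the family, were ZFAND2A (r = 0.999), MRPL24 (r = 0.999), WHSC1 (r = 0.997), OXA1L (r = 0.995) and WDR77 (r = 0.992). ZFAND2A had 13.2 ± 0.660 CPM in high and 17.4 CPM in low uptake (log2 -0.41, adjusted p = 0.0400 in edgeR), and MRPL24 fell by 0.36. For SLC7A11 they were NSUN2 (r = 0.998), PMP22 (r = 0.994), ABCC9 (r = 0.991), PTGR1 (r = 0.990) and SNHG1 (r = 0.990). ABCC9 fell by 0.67, PTGR1 by 0.46 and SNHG1 by 0.48 on the log2 scale. All 10 had a negative log2 fold change, and the 6 libraries behind each r share the split into high and low uptake.

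The authors' deposited table, a list of 2305 gene symbols without values or directions, holds SLC3A2, SLC7A11, SLC7A5, SLC7A8 and SLC7A1, and also SLC7A11-AS1. The other 5 members are not on it. The deposited count tables hold 25680 symbols. The label of the list names a p of 0.05 and does not say whether it was adjusted. SLC7A5 and SLC7A1 are on the list but did not pass here (adjusted p = 0.0577 and 0.114, unadjusted p = 0.00268 and 0.00952 in edgeR). Membership is therefore not a call at the threshold used here.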

How the data were processed

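RNA-seq of 6 U87 libraries was used. Per the labels' protocols, libraries were made from column-purified total RNA with a directional kit. The submitters' processing notes name fastp, STAR, featureCounts and genome build hg19. Not given in the sources used here are the annotation, the strand setting and the handling of multiply mapped reads. Per the file headers, each deposited file gives raw counts by gene symbol, with FPKM and TPM from the authors. FPKM served only to recover the gene length. A further deposited list of symbols (unit other, no score or value) was read for membership. Replicate numbers 2, 3 and 4 came from sample titles, and none of the 6 libraries is numbered 1.

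Counts were tested in edgeR 4.0.16 (R 4.3.3) by the quasi-likelihood F-test with robust moderation, TMM scaling, filterByExpr (minimum count 10, total 15) and Benjamini-Hochberg adjustment over 14598 genes, two-sided. CPM is TMM-scaled. A log2 fold change is high over low uptake, and its SE is its size over the square root of F. The fit was checked on simulated counts. Ratios of TPM were compared by exact permutation. DESeq2 1.42.0, limma 3.58.1 and the settings of the closing section were alternatives. GC content came from the longest GENCODE 29 transcript of each symbol (92.8% of tested genes matched), shared sequence from BLAST 2.17.0, and promoters from RefSeq.

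The 10 members and the lists were chosen with earlier results of these data known. Named list genes were the 2 of smallest p that passed (4 where at least 4 passed), or else the 1 of smallest p. Further names were chosen after values were seen.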

Additional observations from a re-analysis of the deposited data

How the results depend on the processing

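SLC3A2 and SLC7A8 passed with the same direction under all 18 alternatives, and SLC7A11 kept its direction in all and passed in 14. SLC7A5 passed in 7 and SLC7A1 in 3 of 18, each with 1 direction. Members higher numbered 2 and genes past the threshold 2545 with the GC trend removed, when 56.7% of calls were higher against 70.6% as tested. Without 1 library each, genes past the threshold ranged from 232 to 746 (282 without high replicate 2, 276 without low replicate 3, 232 without low replicate 4, 379 without high replicate 4), members higher numbered 1 and members lower 2 each time. The 2 lower were SLC3A2 and SLC7A11, except without high replicate 3, when SLC7A5 (adjusted p = 0.00857 in edgeR) stood in place of SLC7A11 (0.141). The difference in log2 ratio of SLC7A5 to SLC3A2, 0.06, ranged from -0.00668 (without high replicate 3) to 0.17 when a library was left out. The sign of SLC3A1, which never passed, turned to 0.0127 with the length trend removed and 0.0319 without both libraries numbered 2, and ranged from -0.11 to 0.12 without 1 library. The causes were not tested.

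With the replicate number as a block, 3176 of 14598 genes passed, members higher numbered 2, and SLC7A11 lost its call (log2 -1.13, adjusted p = 0.155 in edgeR). With the block and the GC trend removed, 3855 genes passed, members higher numbered 2 and lower 1 (SLC7A11 log2 -1.12, adjusted p = 0.109 in edgeR). The block also gave 17 lower and 1 higher in the NRF2 list, 12 and 3 in the ATF4 list, 3 and 3 among other carriers, 1 and 4 among CD98 partners, 2 and 3 among sensing genes and 7 and 1 among synthetases. SLC7A5 passed with the block alone (log2 -0.48, adjusted p = 0.00145 in edgeR), but not with the GC trend removed as well (adjusted p = 0.124 in edgeR). Nothing in the labels ties samples of the same number together. Deviations from the group means correlated at 0.452, 0.304 and 0.0873 for numbers 2, 3 and 4. Each high-uptake library correlated best with the low-uptake library of its own number. Low replicates 2 and 3 likewise correlated best with the high-uptake library of their number, but low replicate 4 did so with high replicate 3 (0.216). Whether the numbers mark pairs is thus not settled, and the main fit did not take them as pairs. SLC7A7 had 8 to 30 counts a library, and SLC7A2 and SLC7A10 could not be tested.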
